A study of Schizosaccharomyces pombe with 8 samples.

Results

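Copper and zinc are metals that a cell must take up, move to the enzymes that need them and keep from harming it. The 8 genes described here handle them in the fission yeast Schizosaccharomyces pombe: ctr4, ctr5, ctr6 and cuf1 for copper, and zrt1, loz1, zhf1 and zym1 for zinc. They were found by symbol in the deposited tables, which list 7092 genes, and all 8 were matched and tested in every comparison. RNA came from a wild type (h- leu1-32 ura4-D18) and from a strain whose labels give h- wee1::ura4+ leu-32 ura4-D18. That notation places a functional ura4 at wee1, the gene of a kinase that delays entry into mitosis. Each strain was sequenced untreated and after 15 min in 20 mM H2O2, from mid-log growth in YES, a rich medium. All 4 groups share the leucine marker and the ura4-D18 deletion, but only the second strain also carries a functional ura4. Effects of wee1 and of ura4 therefore cannot be told apart in any comparison between the strains. Each group had 2 libraries, and the authors' table holds 1 FPKM value per gene and group (fragments scaled by transcript length and library), so the spread between libraries cannot be shown and the depth is unknown.

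In fission yeast, Ctr4 and Ctr5 form the copper transporter of the plasma membrane together, and Ctr6 lies in the vacuole membrane and returns stored copper to the cytosol. Cuf1 is the copper-sensing transcription factor that switches these transporters on when copper is scarce. Zrt1 is the high-affinity zinc importer, and Loz1 is the zinc finger repressor that turns zrt1 off when zinc is plentiful. Zhf1 moves zinc out of the cytosol into storage compartments, and Zym1 is a metallothionein, a small protein whose cysteines bind zinc.

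The sequences below show what the proteins Cuf1 and Loz1 are known to read and what Zym1 is made of. They were read from the RefSeq genome ASM294v3. The files name no build, but between 99.3% (chromosome III) and 99.9% (chromosome II) of protein-coding genes alone in their locus shared at least 1 end with that annotation, and at least 96.0% did in each of 10 bins along each chromosome. The first pair are stretches upstream of ctr4 (chrIII:817826-817906, plus strand, transcript start 818302 in the files) and of ctr5 (chrI:3635262-3635345, plus strand, transcript start 3635409 in RefSeq), with matches to the Cuf1 element CuSE in capitals.
ctr4: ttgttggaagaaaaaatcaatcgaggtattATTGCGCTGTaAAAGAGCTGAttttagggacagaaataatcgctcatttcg
ctr5: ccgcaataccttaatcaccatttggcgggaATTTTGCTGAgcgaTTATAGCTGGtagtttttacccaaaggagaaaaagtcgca
The next pair lie upstream of zrt1 (chrII:3606953-3607023, plus strand) and of loz1 (chrI:4195567-4195637, minus strand), with the match to the Loz1 element LRE in capitals.
zrt1: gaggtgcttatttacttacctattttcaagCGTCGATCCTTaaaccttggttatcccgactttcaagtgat
loz1: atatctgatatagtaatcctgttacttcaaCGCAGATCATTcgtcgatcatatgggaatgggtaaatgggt
The last is the whole coding sequence of zym1 (chrI:2381730-2381882, plus strand), with cysteine codons in capitals.
zym1: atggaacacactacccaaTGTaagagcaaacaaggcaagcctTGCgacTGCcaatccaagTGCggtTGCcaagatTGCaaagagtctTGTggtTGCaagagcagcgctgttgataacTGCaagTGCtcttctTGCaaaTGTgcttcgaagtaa

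Of the 50 codons of zym1, 12 encode cysteine (24.0%), the highest share among 5113 nuclear proteins translated from RefSeq, whose median was 1.36%. The upstream stretches come from a search of the 500 bases before the annotated transcript start, on both strands. The stretch between that start and the start codon was not searched, so a gene without a match may hold one there. Ctr4 and ctr5 each held 2 CuSE matches on the coding strand, with starts 11 and 14 bases apart. A single CuSE match stood upstream of cuf1 and of zrt1, and none upstream of ctr6, loz1, zhf1 or zym1. CuSE is a loose motif, present in 39.6% of 5112 such windows, and 9.06% of windows held 2 or more matches. LRE was present in 0.646% of windows, and zrt1 and loz1 held 1 match each. The Atf1 element TGACGT, known from stress genes, was found upstream of zrt1 and loz1 and in 8.20% of all windows. The Pap1 elements TTACGTAA and TTAGTCA were present in 7.98% of windows, and among the 8 genes only upstream of zrt1. A match describes letters in a window and does not show that a factor bound there. Ctr4, ctr5 and zrt1 were known targets of these factors beforehand, so their matches are not an independent finding.

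**Figure D1:**
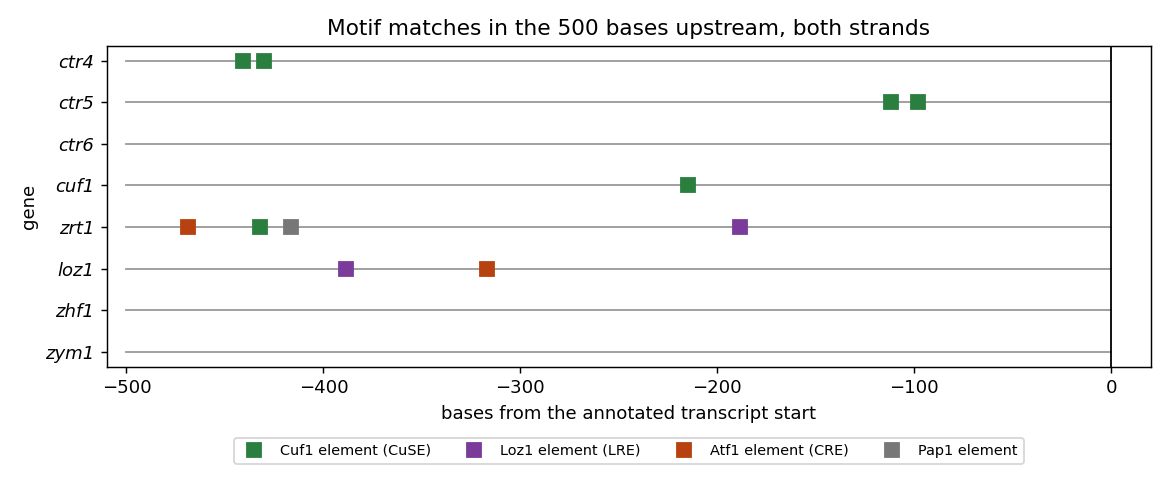
Motif matches on both strands in the 500 bases upstream of the 8 genes, by distance in bases from the annotated transcript start; each square is 1 match and its colour the motif. Ctr4 and ctr5 each carry a pair of CuSE matches, and LRE matches stand upstream of zrt1 and loz1.

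Before the results, the strain label was examined. The wee1 transcript was listed at 8.91 FPKM without and 8.17 FPKM with H2O2 in wild type, against 16.1 and 15.5 FPKM under the deletion label, and ura4 at 0.131 and 0.0704 against 185 and 235 FPKM. The ura4 levels separate the strains as labelled, although the authors' deposited table calls neither difference (q-values of 0.285 untreated and 0.546 with H2O2). The wee1 levels show no loss of its transcript under the deletion label. That table calls wee1 higher there, with and without H2O2, at a q-value of 0.000819 each. Which part of wee1 the reads came from was not tested. The groups are therefore called the pools labelled ∆wee1, and each genotype direction rests on that label. Nuclear protein-coding genes held 73.0% of all FPKM in treated wild type and 86.4% to 94.8% in the other pools. Separate cultures are not mentioned in the labels, and the q-values may therefore measure technical spread alone. A change is given as the log2 ratio of FPKM + 1, ± the standard error implied by the authors' test statistic, and a gene is said to have risen or fallen only where the authors' deposited table has it significant at a q-value under 0.05.

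The copper importer differed by strain. The ctr4 gene (SPCC1393.10, III, 818302 to 819361 in the files, 1 coding exon, 289 residues) was at 314 FPKM in wild type without H2O2 and 241 FPKM with it. Under the ∆wee1 label it was at 127 FPKM without and 179 FPKM with H2O2. Both wild-type values therefore lay above both values of the other label. With 1 pooled value per group this is an order of pools and not a separation of replicates. The share of all genes with such an order was not computed. Without peroxide, ctr4 was lower under the ∆wee1 label by a log2 ratio of -1.30 ± 0.21, or 0.405 times the wild-type level, and under H2O2 by -0.43 ± 0.21, or 0.744 times. The authors' deposited table calls both, at q-values of 0.000819 and 0.0223.

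Its partner ctr5 (SPAC1142.05, I, locus 3635143 to 3636572, 173 residues) stood at 376 and 344 FPKM in untreated and treated wild type, and at 253 and 278 FPKM in the corresponding pools labelled ∆wee1. As for ctr4, both wild-type values lay above both others, again with 1 pooled value per group and no share of all genes computed. The untreated difference was -0.57 ± 0.21 (0.672 times), called in the authors' deposited table at a q-value of 0.000819, and that under H2O2 was -0.31 ± 0.21, not called at 0.170 in the authors' deposited table. FPKM of ctr4 per FPKM of ctr5 was 0.835 without and 0.700 with H2O2 in wild type, and 0.503 without and 0.644 with it under the ∆wee1 label. Ctr4 was below its partner in every pool, within 2 implied standard errors in untreated wild type (-0.26 ± 0.21 on the log2 scale) and beyond them in the other 3 pools (up to -0.99 ± 0.21 in size). These errors do not cover bias between genes. An antisense RNA, SPNCRNA.923, overlaps ctr5, and it was listed between 0 and 1.74 FPKM in the 4 groups.

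For the vacuolar transporter ctr6 (SPBC23G7.16, II, 2100018 to 2101253, 5 coding exons, 148 residues) the strains lay close together. Its levels were 202 and 244 FPKM in untreated and treated wild type and 202 and 242 FPKM in the pools labelled ∆wee1. The strains differed by a log2 ratio of -0.00 ± 0.21 untreated and -0.01 ± 0.21 after H2O2. Ctr6 was slightly higher after H2O2 in both strains (0.27 ± 0.21 and 0.26 ± 0.21), and neither value was called. The regulator cuf1 (SPAC31A2.11c, I, 407714 to 409872, 411 residues) was listed at 24.9 FPKM without and 16.8 FPKM with H2O2 in wild type, and at 21.7 and 15.6 FPKM under the ∆wee1 label. Both treated pools lay below both untreated ones, with 1 pooled value per group. How many of all genes have this order of pools was not computed. Cuf1 fell in wild type (-0.54 ± 0.23), at a q-value of 0.0133 in the authors' deposited table. In the pools labelled ∆wee1 it was lower by a similar size (-0.45 ± 0.24) but just outside the threshold, at 0.0549 in the authors' deposited table.

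**Figure D2:**
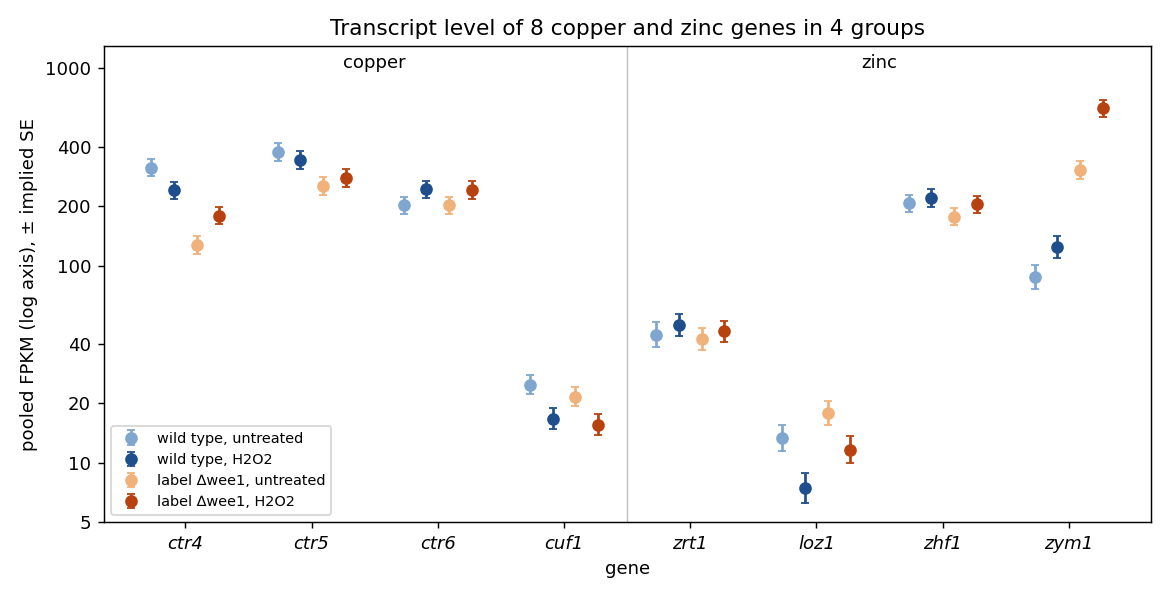
Pooled FPKM of the 8 genes in each of the 4 groups on a log axis; each point is 1 group of 2 libraries combined by the authors, and bars are the standard error implied by the authors' test statistic. Zym1 spans 87.6 to 628 FPKM and ctr4 127 to 314 FPKM, while ctr6, zhf1 and zrt1 stay within narrow bands.

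Among the zinc genes, zym1 moved most. The metallothionein gene (SPAC22H10.13, I, 2381690 to 2382200, 50 residues) was at 87.6 FPKM without and 125 FPKM with H2O2 in wild type. Under the ∆wee1 label it was at 306 FPKM without and 628 FPKM with H2O2. Each pool labelled ∆wee1 was above each wild-type pool, with 1 pooled value per group. This is an order of pools, and its share among all genes was not computed. The untreated difference between strains was 1.79 ± 0.25, or 3.49-fold, and that under H2O2 was 2.32 ± 0.24, or 5.04-fold, both called at a q-value of 0.000819 in the authors' deposited table. With H2O2, zym1 rose in the pools labelled ∆wee1 (1.04 ± 0.21, 2.05-fold). In wild type it was higher by 0.50 ± 0.27, at a q-value of 0.0635 in the authors' deposited table, and so was not called. These comparisons share pools and are not independent of each other. No other annotated gene overlaps zym1 or ctr4 in RefSeq. On the opposite strand, SPNCRNA.5491 overlaps ctr6, SPNCRNA.2160 and SPNCRNA.2161 overlap cuf1, and SPNCRNA.2966 and SPNCRNA.2967 overlap zhf1. The part of shared reads in the values of these genes was not tested.

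The repressor loz1 (SPAC25B8.19c, I, locus 4190288 to 4195228, 522 residues) had the lowest levels of the 8 in every group, at 13.4 and 7.47 FPKM in untreated and treated wild type and 17.8 and 11.7 FPKM in the pools labelled ∆wee1. Within each strain the treated pool was the lower one. Loz1 fell in wild type (-0.76 ± 0.33), with a q-value of 0.0145 in the authors' deposited table, and was lower after H2O2 in the pools labelled ∆wee1 (-0.57 ± 0.30), where the authors' deposited table gives 0.0584. Under the ∆wee1 label it was higher by 0.39 ± 0.30 untreated and 0.58 ± 0.34 after H2O2, neither of them called. The gene SPAC25B8.18 overlaps loz1 on the opposite strand. It stood at 25.8 and 33.0 FPKM in untreated and treated wild type and at 26.4 and 36.6 FPKM in the pools labelled ∆wee1. The libraries were made with a stranded kit per the labels, but the sources used here do not give the strand setting of the counting. The part of shared reads in the loz1 values was not tested.

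The zinc importer zrt1 (SPBC16D10.06, II, locus 3605142 to 3611858, 408 residues), the known target of Loz1, was called in 0 of the 4 comparisons. Its levels were 44.6 FPKM without and 50.0 FPKM with H2O2 in wild type, against 42.5 and 46.5 FPKM under the ∆wee1 label. Its 4 log2 ratios lay between -0.10 and 0.16, with standard errors of 0.26 to 0.28. On the opposite strand zrt1 overlaps sir2, whose levels ran from 22.1 to 26.9 FPKM, and SPNCRNA.1622, at 1.02 to 4.50 FPKM, and neither was called. The storage transporter zhf1 (SPAC23C11.14, I, 2158659 to 2160086, 387 residues) stood at 207 and 220 FPKM in wild type and 177 and 205 FPKM in the pools labelled ∆wee1. None of its ratios was called, and the largest in size was -0.22 ± 0.21 between the untreated strains. FPKM of zym1 per FPKM of zhf1 was 0.424 without and 0.567 with H2O2 in wild type, and 1.72 and 3.07 under the ∆wee1 label, so the order of these 2 genes differed between the strains.

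In wild type after H2O2, 2 of the 8 genes fell (cuf1 and loz1) and 0 rose, where the authors' deposited table has 7.47% of 6277 tested genes down, 6.96% up and 14.4% called in all. In the pools labelled ∆wee1, 2 rose (ctr4 and zym1) and 0 fell, against 5.34% up, 4.13% down and 9.47% called of 6312. Between the untreated strains, ctr4 and ctr5 were lower and zym1 higher under the ∆wee1 label, 3 of 8, against 4.21% lower, 4.64% higher and 8.85% called of 6292. Between the treated strains ctr4 was lower and zym1 higher, 2 of 8, against 7.01% lower, 6.51% higher and 13.5% called of 6333. The median log2 ratio of the 8 genes was -0.02, 0.17, -0.13 and -0.10 in these comparisons, in the order given, and that of all tested genes 0.02, -0.01, 0.04 and 0.03. Calls went in both directions. At an unadjusted p-value under 0.05, the authors' deposited table has 4, 4, 3 and 4 of the 8 genes, in the same order of comparisons, beside 24.1%, 17.4%, 17.0% and 22.9% of all tested genes. At a q-value under 0.01 it has 0, 2, 3 and 1 of the 8, beside 9.30%, 5.99%, 5.26% and 7.99%. Called genes that also changed at least 2-fold in the authors' deposited table were 0, 1, 2 and 1 of the 8, beside 5.13%, 3.44%, 2.73% and 3.73%.

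**Figure D3:**
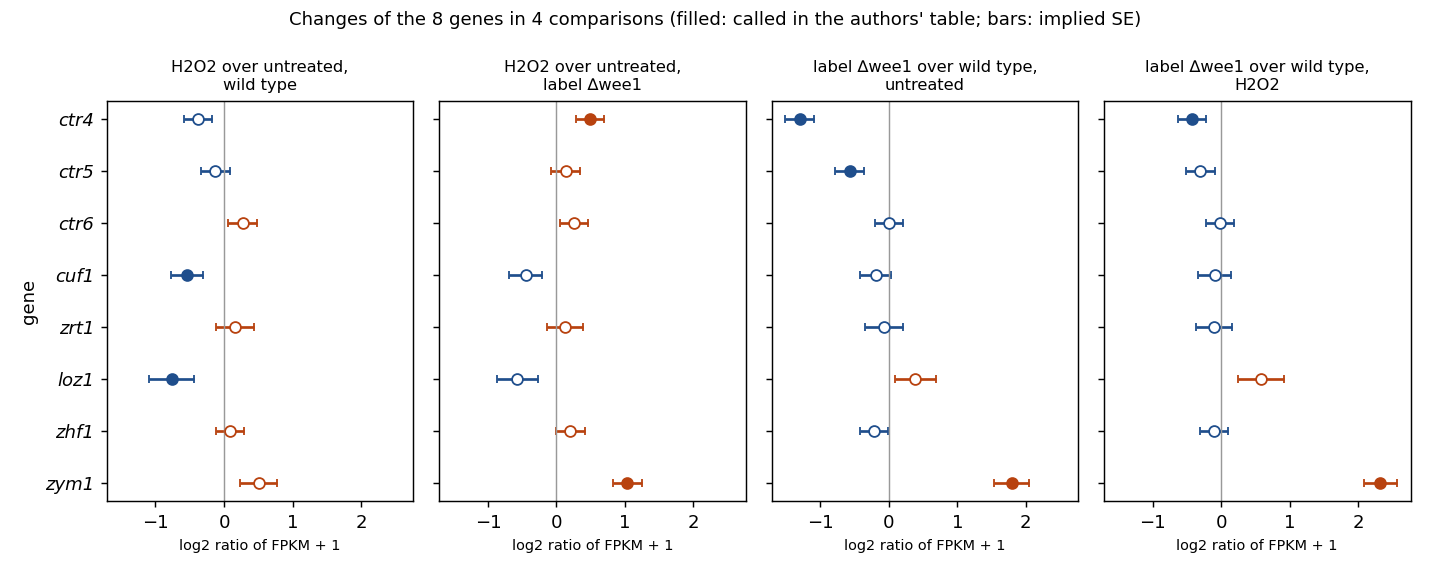
Log2 ratio of FPKM + 1 of the 8 genes in 4 comparisons, with bars for the implied standard error; filled points are called in the authors' deposited table. Zym1 and ctr4 are called in 3 of the 4 comparisons, while ctr6, zrt1 and zhf1 are called in none.

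Whether the strains answered peroxide differently was tested by the difference of both log2 ratios. The ctr4 response was -0.38 ± 0.21 in wild type (q-value 0.0598 in the authors' deposited table, not called) and 0.49 ± 0.21 under the ∆wee1 label (0.00601 there, called). The difference was 0.87 ± 0.29, with a nominal 95% interval of 0.30 to 1.45 and an unadjusted p of 0.00294 in the z test. After Benjamini-Hochberg adjustment over 6108 genes in this z test the adjusted p was 0.528. For zym1 the difference was 0.53 ± 0.35 (-0.15 to 1.21), with an adjusted p of 0.9999 in the same z test. The other 6 genes differed by between -0.03 and 0.26, with standard errors from 0.29 to 0.45. So 0 of the 8 genes passed this test, which called 0.311% of all genes, and 1 of 8, against 1.54% of all genes, had an unadjusted p under 0.05. Over all genes the robust SD of z was 0.451, below the 1 of a standard normal. Dividing by it gave adjusted p-values of 7.88e-09 for ctr4 and 0.0198 for zym1 in the z test, and 4.88% of all genes then passed. The authors' p-values stand for normal deviates 1.43 times their statistic at the median, so the implied standard errors may be too large. The intervals and p-values of this z test rest on those errors, whose calibration was not tested.

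**Figure D4:**
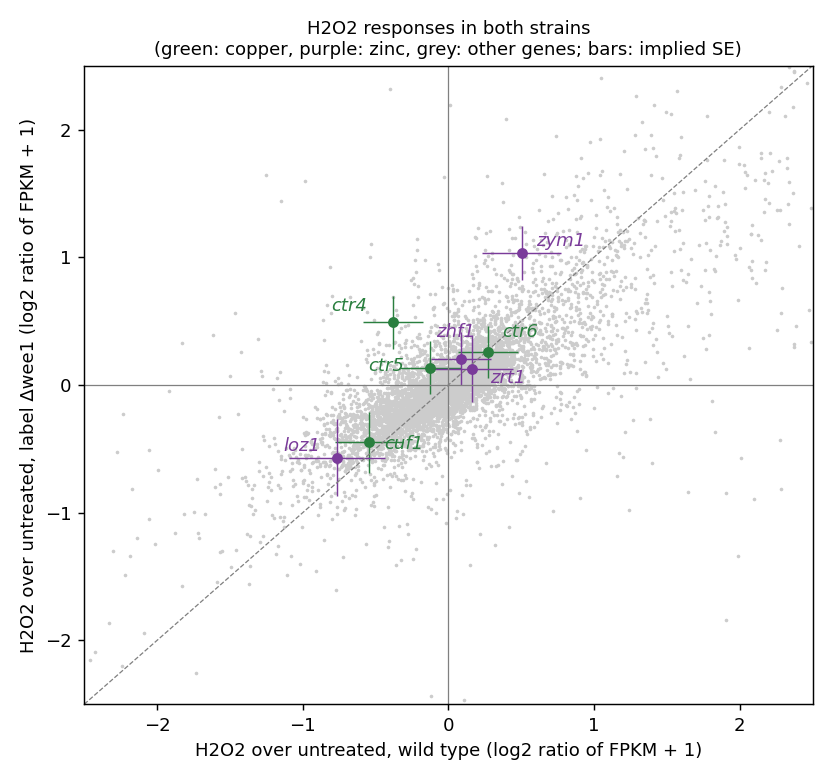
H2O2 response (log2 ratio of FPKM + 1) on the x axis for wild type and on the y axis for the ∆wee1 label, for 6195 genes tested in both, of which 103 beyond 2.5 on either axis are not drawn; copper genes are green, zinc genes purple, other genes grey, and bars are implied standard errors. Ctr4 lies at -0.38 and 0.49, on opposite sides of 0, and zym1 at 0.50 and 1.04.

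FPKM is scaled by length, and levels are set beside each other between genes here as a description. Bias between genes, as from short or overlapping transcripts, was not measured. The implied standard errors come from tests of 1 gene between groups and do not cover it. In untreated wild type the order from the top was ctr5, ctr4, zhf1, ctr6, zym1, zrt1, cuf1 and loz1, and the pairs ctr5 and ctr4, and zhf1 and ctr6, lay within 2 implied standard errors of each other. Zym1 was 5th in both wild-type pools and 1st in both pools labelled ∆wee1, where it lay above 91.1% (untreated) and 94.5% (treated) of nuclear protein-coding genes, against 75.1% in untreated wild type. Without peroxide that 1st place was not distinct from ctr5 within 2 standard errors, and with H2O2 it was, by 1.17 ± 0.21. Ctr4 was 2nd in untreated wild type and 5th in both pools labelled ∆wee1. The order zrt1, cuf1, loz1 at the bottom was the same in all 4 groups, although cuf1 and loz1 were within 2 standard errors under the ∆wee1 label.

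Other genes of metal handling were read from 4 lists, in which 29 of 33 symbols were matched. Of 12 further copper genes, sod1, the copper-zinc superoxide dismutase, rose in wild type (561 to 796 FPKM, 0.50 ± 0.21), while mca1, listed in the files as a transcriptional regulator, fell (-0.53 ± 0.21). In the pools labelled ∆wee1, with H2O2, atx1, the cytosolic copper chaperone (123 to 173 FPKM, 0.49 ± 0.24), rose, as did ccc2, the copper-pumping ATPase of the secretory pathway (24.8 to 33.7 FPKM, 0.42 ± 0.21). Between the untreated strains mfc1, a copper transporter of meiotic cells, was higher under the ∆wee1 label (0.691 to 2.45 FPKM, 3.55-fold, 1.03 ± 0.28). Cao1, a copper amine oxidase, was lower (-0.54 ± 0.21). Mfc1 was near the floor, where adding 1 FPKM shrinks the log2 ratio, and its locus holds 4 genes. Between the treated strains atx1 was higher (0.49 ± 0.23) and cao1 lower (-0.65 ± 0.21). The list's median was 0.10, 0.12, 0.00 and 0.10 over the 4 comparisons, near that of all tested genes.

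Cuf1 is also known to repress genes of reductive iron uptake when copper is scarce. All 3 of these, the oxidase fio1, the permease fip1 and the ferric reductase frp1, were higher under the ∆wee1 label, with medians of 1.72 untreated and 1.36 after H2O2. Of all tested genes, 4.64% were called higher untreated and 6.51% after H2O2. Fip1 went from 12.5 to 43.6 FPKM between the untreated strains, in the direction opposite to ctr4. The siderophore transporter str1, which is not on this list, also went from 15.6 to 54.5 FPKM. Of the other copper transporters under Cuf1, ctr5 was lower in that comparison (-0.57 ± 0.21) and ctr6 was not called (-0.00 ± 0.21). Other iron genes were not listed here, and the part of Cuf1 in these differences was not tested. With H2O2, fip1 and frp1 fell in wild type, where 7.47% of all tested genes did. All 3 fell in the pools labelled ∆wee1, where 4.13% did. In the pools labelled ∆wee1 ctr4 rose (0.49 ± 0.21), and in wild type it was lower after H2O2, as fip1 and frp1 were, but not called (-0.38 ± 0.21). No CuSE match was found in the windows upstream of these 3 genes.

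Of 6 other zinc genes, adh4, an alcohol dehydrogenase, fell with H2O2 in both strains (-0.69 ± 0.21 and -0.66 ± 0.21). It was also lower under the ∆wee1 label, at 125 FPKM in untreated wild type against 54.9 FPKM (-1.18 ± 0.21) and 77.2 against 34.3 FPKM after H2O2 (-1.15 ± 0.21). Zrg17, which together with Cis4 carries zinc into the Golgi, fell with H2O2 in wild type (23.2 to 10.9 FPKM, -1.03 ± 0.27) and under the ∆wee1 label (16.3 to 10.5 FPKM, -0.59 ± 0.28). Cis4 itself was not called in any comparison. The low-affinity transporter fet4, between 4.46 and 6.87 FPKM, and adh1, between 1586 and 2039 FPKM, were not called either. No other gene of this list was called.

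Zym1 belongs to metal detoxification, but the other 8 genes listed for it did not share its pattern of calls. Pcs2, the phytochelatin synthase, was lower under the ∆wee1 label, untreated (42.9 to 26.8 FPKM, -0.66 ± 0.31) and after H2O2 (-0.70 ± 0.32). Hmt1, the vacuolar transporter known from cadmium tolerance, was higher under that label between the treated strains (46.1 to 66.0 FPKM, 0.51 ± 0.24). Hmt2, the mitochondrial sulfide:quinone oxidoreductase, rose with H2O2 in the pools labelled ∆wee1 (216 to 305 FPKM, 0.50 ± 0.23). Gcs1, the first enzyme of glutathione synthesis, was at 106 to 136 FPKM and zip1, the bZIP factor of the cadmium response, at 293 to 360 FPKM, and neither was called. In wild type 0 of the 8 were called after H2O2, against 14.4% of 6277 tested genes, so this count says little for 8 genes.

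**Figure D5:**
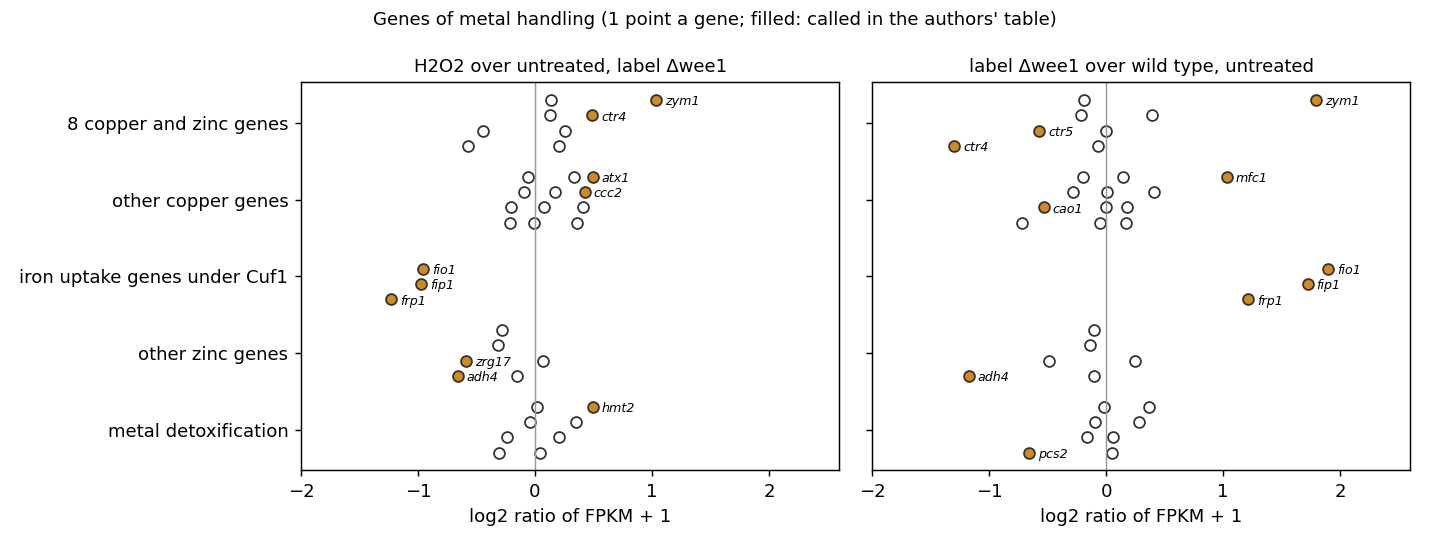
Log2 ratio of FPKM + 1 for the 8 genes and for 4 lists of metal handling genes, after H2O2 in the pools labelled ∆wee1 (left) and between the untreated strains (right); each point is 1 gene, and filled points are called in the authors' deposited table. The 3 iron uptake genes stand on the right between the strains and on the left after H2O2, and zym1 is on the right in both panels.

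The genes with the most similar profile were taken by Euclidean distance of centred log2(FPKM + 1) over the 4 groups among 4103 genes with a symbol. Over 4 pooled values many genes lie close, so this is a description. Nearest to ctr4 was isp4, named in the files as a sexual differentiation process protein (distance 0.26), followed by the antisense RNAs SPAC9.08c-antisense-1 and SPAC24H6.11c-antisense-1. Nearest to ctr5 were thr1, a probable homoserine kinase (0.06), pos5, the mitochondrial NADH kinase, and SPBC215.07c-antisense-1. For cuf1 they were aps1, a diphosphoinositol polyphosphate phosphohydrolase (0.01), mug70 and vps10, and for loz1 vps5-antisense-1 (0.10), php2 and mmm1. Zym1 had the most distant neighbours at first place, eno102-antisense-1 (0.27), followed by osr1 (0.57) and the siderophore transporter str1 (0.69). The eno102-antisense-1 RNA had 20.8 FPKM without and 25.0 FPKM with H2O2 in wild type, and 57.1 and 131 FPKM under the ∆wee1 label.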

How the data were processed

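The authors ran cutadapt, HISAT2 and Cuffdiff, per the submitters' processing notes. The sources used here give no versions, build, annotation or strand setting. Per the labels' protocols, RNA was extracted with TRIzol for TruSeq stranded mRNA libraries. The authors deposited FPKM as 1 value per group with both libraries combined. Their table of 6 pairs of groups holds log2 fold changes, a test statistic (a score), p-values and q-values, per the file headers. The lowest p-value that the authors list is 5e-05.

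Log2 ratios were computed here after adding 1 FPKM, and changes of low genes are understated on that scale. Standard errors are the authors' fold change divided by their statistic, solved into a variance per group for 6111 genes. The authors' p-values are smaller than a normal reading of the statistic gives: the normal deviates they stand for were, at the median, 1.43 times the statistic. The difference of responses was tested with a normal z test over 6108 genes with a mean of at least 1 FPKM, with Benjamini-Hochberg adjustment. The code was run on data simulated with the implied errors, which does not test whether those errors are calibrated. Python 3.11.15 with numpy, pandas and scipy 1.17.1 was used. Members and lists were chosen with earlier results of these data known. The text may name all 8 genes, the strain markers, and in each list at most 6 genes that were called or reached 5 FPKM, and 3 nearest profiles per called gene. Depth is unknown, and no interval that needs it was computed. Other pseudocounts, scalings and call thresholds were tried as alternatives.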

Additional observations from a re-analysis of the deposited data

How the results depend on the processing

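The 32 log2 ratios of the 8 genes kept their sign with pseudocounts of 0.1 and 5 FPKM and with median-of-ratios scaling, moving by at most 0.20. Quantile normalization turned the sign of 4 uncalled ratios (zhf1 in wild type, ctr5 in the pools labelled ∆wee1, ctr6 between strains with and without H2O2) and moved ctr4 and ctr5 in wild type after H2O2 by more than 1 standard error, to -0.61 and -0.36. The cause was not tested. Counts of called genes depend on the threshold. At a q-value under 0.01, 0 of the 8 stayed called by Cuffdiff after H2O2 in wild type (2 at 0.05, 4 at an unadjusted p under 0.05), beside 9.30% of all genes at 0.01 and 24.1% at the unadjusted p. Between treated strains 1 stayed called at 0.01 (7.99% of all genes). Asking also for a 2-fold change left 0 in wild type (5.13% of all genes), 1 in the pools labelled ∆wee1 (3.44%), 2 between untreated strains (2.73%), where ctr5 dropped out, and 1 between treated strains (3.73%). For the difference of responses, z values divided by their robust SD gave 2 genes in place of 0, ctr4 and zym1, beside 4.88% of all genes. No paired analysis was possible because the files give 1 pooled value per group, and leaving out single libraries was not run for the same reason.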
